A study of Homo sapiens with 6 samples.

Results

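The genes described here carried a high H3K27me3 signal in untreated G401 cells, and their part of the H3K27me3 library was not smaller after the EED inhibitor MAK683. They were chosen from the counts themselves. Each library was divided by its total and multiplied by 1000000 (CPM), and 0.05 CPM was added before log2 ratios were taken. A gene had to have at least 100 counts in the DMSO and MAK683 inputs together, a log2 ratio of DMSO H3K27me3 over DMSO input of at least 0.8, and a log2 ratio of H3K27me3 in MAK683 over DMSO of at least 0. Of 56638 genes in the table, 21263 passed the input minimum, 3101 (14.6%) were also high in H3K27me3, and 217 of these met the last condition. These 217 genes are called members below, and the other 2884 high genes, whose H3K27me3 CPM was lower in MAK683, are called genes that lost share.

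G401 is an established human cell line from a malignant rhabdoid tumor, a cancer that lacks SMARCB1, a subunit of the SWI/SNF chromatin remodeling complex. The cells were exposed for 3 days to DMSO, the solvent control, or to 3 µM MAK683, and H3K27me3, H3K4me3 and input chromatin were sequenced from each. There was 1 library per treatment and antibody, so no difference here was compared with a spread between replicates, no test was run, and differences between the cultures or preparations cannot be told apart from differences between treatments. The labels give G401 as the only line, with no other genotype or agent in the ChIP-seq groups.

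PRC2 is the enzyme complex that places methyl groups on lysine 27 of histone H3. EZH2 is its catalytic subunit, SUZ12 holds the complex together, and EED binds H3K27me3 that is already present and in doing so stimulates the enzyme, which lets the mark spread and be renewed as chromatin is copied. MAK683 occupies that pocket of EED. H3K27me3 is known for keeping developmental regulators silent, often at CpG-rich promoters, whereas H3K4me3 marks the start sites of active or poised genes.

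The library totals ranged from 13308099 counts for H3K27me3 in MAK683 to 21281877 for H3K4me3 in DMSO, and 3 counts corresponded to between 0.141 and 0.225 CPM. The MAK683 library held 41.0% of all H3K27me3 counts and 48.0% of all H3K4me3 counts. A CPM is a share of its library: the Drosophila spike-in that the methods describe is not part of these counts, so an unchanged CPM is not an unchanged amount of the mark. SMARCB1 had 0 counts in both inputs. Exact Clopper-Pearson intervals (95%) are given for shares of counts, and they cover counting error only.

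The promoters of the 4 members with the most H3K27me3 counts in DMSO that have an entry among the RefSeq promoters used here are printed to show how differently members are built at their starts. Each runs 5′ to 3′ on the gene's strand, from 250 bases before to 50 bases after the most upstream start (RefSeq, GRCh38.p14), in lower case with every CpG in capitals. The windows are chr10:131311672-131311971 (minus strand) for TCERG1L, chr6:132401426-132401725 (minus) for MOXD1, chr6:130365767-130366066 (plus) for TMEM200A and chr7:50565356-50565655 (minus) for DDC.
TCERG1L: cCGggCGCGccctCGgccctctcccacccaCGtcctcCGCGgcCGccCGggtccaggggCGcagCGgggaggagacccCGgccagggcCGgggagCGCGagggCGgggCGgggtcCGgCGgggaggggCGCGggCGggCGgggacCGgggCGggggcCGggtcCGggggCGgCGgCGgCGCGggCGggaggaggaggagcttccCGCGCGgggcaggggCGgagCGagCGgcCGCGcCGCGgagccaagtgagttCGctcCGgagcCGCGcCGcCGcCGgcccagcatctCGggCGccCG
MOXD1: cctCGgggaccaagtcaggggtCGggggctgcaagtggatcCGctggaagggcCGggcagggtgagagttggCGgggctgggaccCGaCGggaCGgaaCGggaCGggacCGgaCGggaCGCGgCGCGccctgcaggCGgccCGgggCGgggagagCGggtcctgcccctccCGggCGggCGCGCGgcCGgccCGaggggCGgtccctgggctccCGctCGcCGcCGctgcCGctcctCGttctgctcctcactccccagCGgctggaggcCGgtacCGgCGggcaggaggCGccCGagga
TMEM200A: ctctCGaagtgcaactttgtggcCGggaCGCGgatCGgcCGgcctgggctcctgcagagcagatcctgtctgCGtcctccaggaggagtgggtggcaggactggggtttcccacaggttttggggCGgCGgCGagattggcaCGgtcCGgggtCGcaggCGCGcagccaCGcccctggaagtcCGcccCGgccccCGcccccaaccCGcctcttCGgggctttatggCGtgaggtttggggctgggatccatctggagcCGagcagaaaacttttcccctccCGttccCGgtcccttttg
DDC: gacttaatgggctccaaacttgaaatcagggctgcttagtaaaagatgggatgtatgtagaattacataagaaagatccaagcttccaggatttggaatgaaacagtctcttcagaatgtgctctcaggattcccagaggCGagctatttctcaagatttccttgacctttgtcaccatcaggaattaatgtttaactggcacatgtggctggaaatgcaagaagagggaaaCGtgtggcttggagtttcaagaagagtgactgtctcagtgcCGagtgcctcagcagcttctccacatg

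TCERG1L, a relative of a transcription elongation regulator, had 53 CpGs in its window, and MOXD1, a monooxygenase-like protein, had 40. TMEM200A, a transmembrane protein, had 25. DDC, the enzyme that makes dopamine and serotonin from their precursors, had only 3, and its ratio of observed over expected CpG was 0.21, against 0.98 for TCERG1L. The CpG-poor start was the more common kind among the members. Of 91 members with a promoter entry, 27 (29.7%) had an observed over expected CpG ratio of at least 0.6 together with a GC content of at least 50%, against 710 of 1474 genes that lost share (48.2%) and 68.1% of 12501 genes that passed the input minimum. The search was for the letters CG, which read the same on both strands. The median ratio was 0.36 for the members and 0.61 for the genes that lost share.

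The H3K27me3 values that follow are those that chose the members, and they are a description. All 217 members had fewer raw H3K27me3 counts in MAK683 than in DMSO, as had all 2884 genes that lost share. They were members because their counts fell by no more than the library did, to 0.694 times its size. The log2 change of H3K27me3 CPM among the members had a median of 0.071 and a range from 0.00028 to 0.38. It was below 0.1 at 139 of the 217 (64.1%), at least 0.1 at 78 and at least 0.2 at 19. Over the 21263 genes the median change was 0.10, with 61.6% at or above 0, and over the genes that lost share it was −0.22. A change of at least 0 was thus common among all genes but was found at 7% of the high genes, and 76 members reached the median of all genes.

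**Figure D1:**
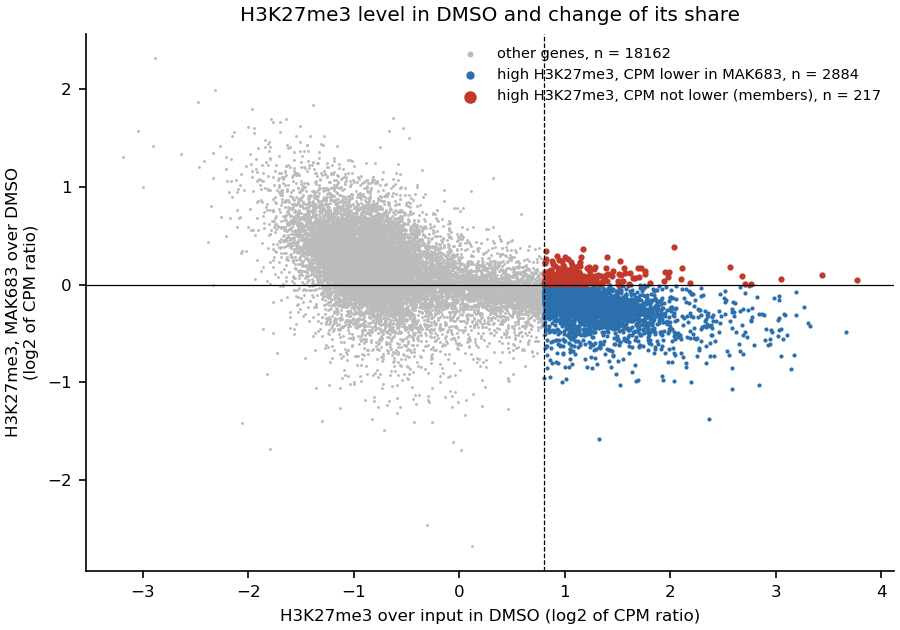
H3K27me3 over input in DMSO (x axis, log2 of the CPM ratio) and the change of H3K27me3 between MAK683 and DMSO (y axis, log2 of the CPM ratio) for each gene with at least 100 input counts, with members in red, genes that lost share in blue and all others in grey. The 217 members form a thin layer above 0 in which 139 lie below 0.1, while the median of the genes that lost share is −0.22.

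Most of these changes lay within the interval for counting error. The 95% interval of the share of H3K27me3 counts found in MAK683 lay above the library share of 41.0% at 7 members (0.226% of the 3101 high genes, while 28.2% of the 21263 genes were above) and below it at none of the 217. For the other 210 members the interval included the library share. Among the genes that lost share, 2071 of 2884 (71.8%) had an interval below 41.0%. The same H3K27me3 counts chose the groups. No member could therefore have an interval below the library share, and no gene that lost share could have one above it. The side on which the intervals lie thus follows from the choice and is not a separate difference between the groups. The intervals show only how many genes lay beyond counting error.

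The 7 members were CHP2, ZNF840, RP11-686G23.2, AP000362.1, RP11-345M22.3, SLC6A3 and PTPRN2. CHP2, a calcineurin B-like calcium-binding protein (chr16:23766347-23770256, GRCh37), had 274 H3K27me3 counts under DMSO and 248 under MAK683, a share of 47.5% (43.2 to 51.9%) and, with a log2 change of 0.38, the largest among the members. Its input counts were 58 and 63, so its log2 level over input was 2.04 with DMSO and 2.51 with MAK683. CHP2 was high in both treatments, and higher relative to input in MAK683.

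SLC6A3, the dopamine transporter (chr5:1392909-1445555), had 1321 and 1002 counts, a share of 43.1% (41.1 to 45.2%). PTPRN2, a phosphatase-like protein of secretory granules that spans 1049 kb near the end of chromosome 7 (chr7:157331750-158380515), had by far the most counts, 22220 in DMSO and 15958 in MAK683. Its share was 41.8% (41.3 to 42.3%), an interval that is narrow because of this depth. The log2 change was 0.048, below the median of 0.10 over all genes that passed the input minimum. Relative to input, PTPRN2 went the other way, from 0.81 in DMSO to 0.74 in MAK683.

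ZNF840, a zinc finger gene that the newer annotation calls the pseudogene ZNF840P, had 235 and 210 counts (47.2%, 42.5 to 51.9%). None of its span is free of other annotated genes, so its counts may belong in part to neighbors. The 3 clone-named genes, which have no symbol in the annotation used here, had 448 and 363 counts (RP11-345M22.3), 347 and 285 (AP000362.1) and 245 and 207 (RP11-686G23.2). At 4 of the 7, H3K27me3 over input was also at least as high in MAK683 as in DMSO.

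**Figure D2:**
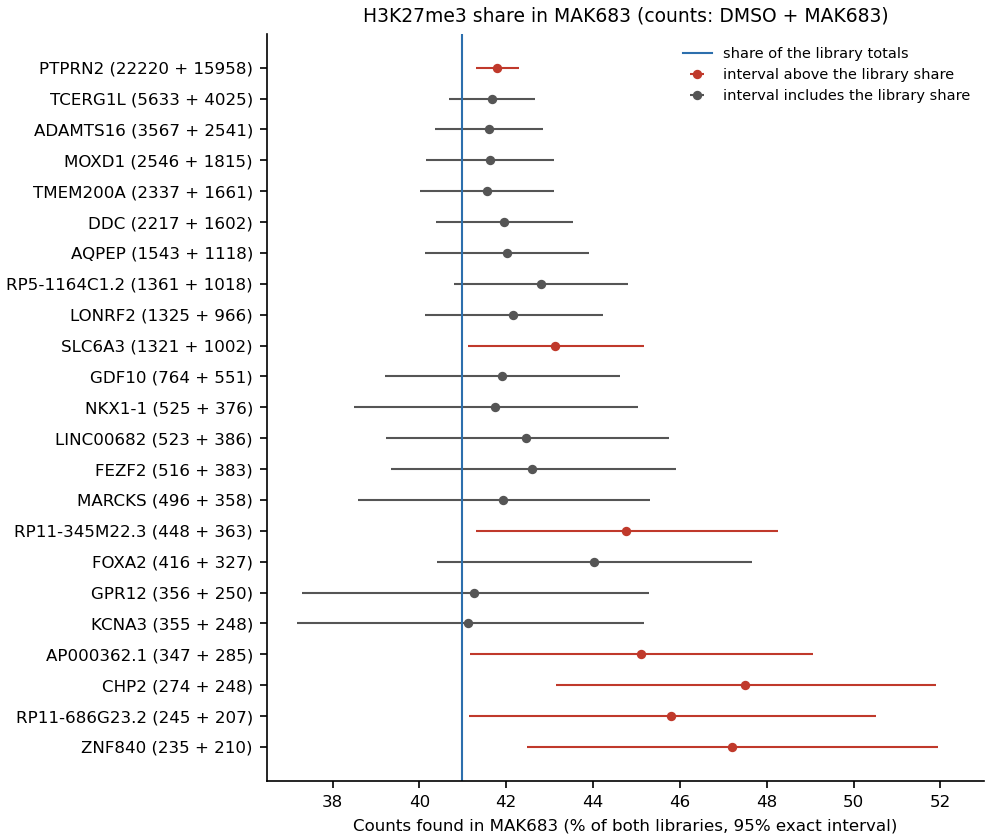
Share of the H3K27me3 counts of a gene found in MAK683 (x axis, percent of the counts of both libraries) for named members with their counts in DMSO and MAK683, points with 95% exact intervals. Intervals of the 7 members in red lie to the right of the library share of 41.0% (blue line), and those of the other members shown cross it.

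Members had fewer counts than the genes that lost share, with a median near that of all genes. They had a median of 274 H3K27me3 counts in DMSO and 211 in MAK683, whereas genes that lost share had 895 and 531. All genes that passed the input minimum had 268 and 204. Under 500 counts in DMSO were found at 158 members (72.8%), at 33.7% of the genes that lost share and at 66.6% of all genes. At least 1000 were found at 21 members (9.68%), at 46.8% of the genes that lost share and at 18.9% of all genes. The share of high genes that were members fell with the count: 52 of 294 (17.7%) below 300 counts in both libraries together, 69 of 565 (12.2%) from 300 to 600, 60 of 614 (9.77%) from 600 to 1200, 29 of 581 (4.99%) from 1200 to 2400, and 7 of 1047 (0.669%) from 2400 on. The H3K27me3 counts that set these classes also enter the rule, and the reason for the fall was not tested. The median change of the high genes was −0.27 below 300 counts and −0.19 from 2400 on, and the quartiles widened from −0.24 and −0.14 to −0.47 and −0.082.

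**Figure D3:**
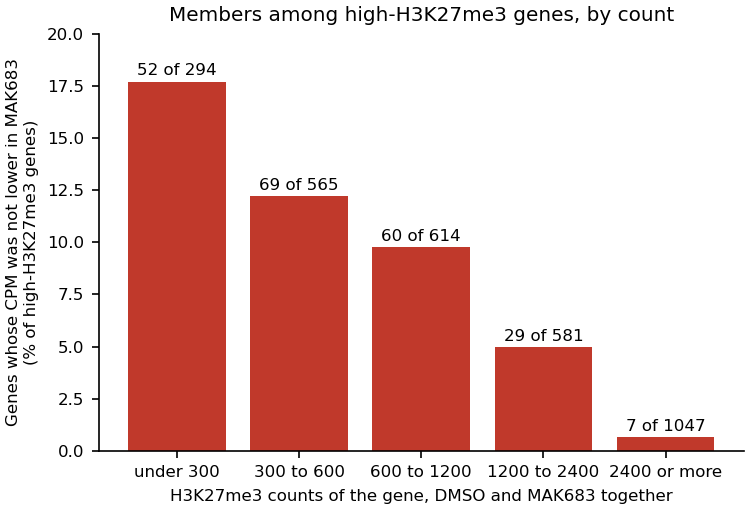
Percent of high-H3K27me3 genes that were members (y axis) by the H3K27me3 counts of the gene in DMSO and MAK683 together (x axis), with the number of members and of high genes above each bar. The bars fall from 17.7% below 300 counts to 0.669% from 2400 counts on.

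The members with the most counts have the tightest intervals. After PTPRN2 came TCERG1L (chr10:132890654-133109984), with 5633 counts in DMSO and 4025 in MAK683, a share of 41.7% (40.7 to 42.7%). ADAMTS16, a secreted metalloprotease (chr5:5140443-5320417), had 3567 and 2541 counts, a share of 41.6% (40.4 to 42.8%). MOXD1 (chr6:132617194-132722614) had 2546 and 1815, TMEM200A (chr6:130687162-130764212) had 2337 and 1661, and DDC (chr7:50526134-50633102) had 2217 and 1602. Except for PTPRN2, the intervals of these genes included 41.0%. The upper bound for TCERG1L, 42.7%, lay close to the library share. AQPEP, an aminopeptidase now named LVRN (1543 and 1118), was the last of the 7 members with at least 2400 counts. LONRF2, a RING finger protein, had 1325 and 966.

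The thresholds cut through values that counting error could move. Just inside the change of 0 lay CST4 (167 and 116 H3K27me3 counts, log2 change 0.00028), CTB-164N12.1 (714 and 496, 0.00042) and RP11-298O21.2 (154 and 107, 0.00068). Just outside lay CTA-109P11.1 (425 and 295, −0.00074), PZP (1363 and 946, −0.00087) and RP11-255G12.3 (160 and 111, −0.0015). At the level of 0.8 over input, RP11-1070N10.6 (0.807), CLEC6A (0.811) and RP11-345M22.3 (0.811) were inside, and THEM4 (0.799), RP11-542A14.1 (0.799) and CTB-1I21.1 (0.796) were outside. At the input minimum, COL11A2P1 and AC034110.1 had 101 counts and RP11-395L14.4 had 102, whereas AC073257.1, AC006552.1 and RP11-417J1.1 had 99.

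The level of H3K27me3 in DMSO was lower in the members than in the genes that lost share. The DMSO H3K27me3 count enters both this level and the change that chose the members. A lower DMSO value favors membership, so the direction of this difference is not independent of the choice. On the log2 scale over input the members had a median of 1.06 in DMSO and 1.05 in MAK683, and the genes that lost share had 1.21 and 0.95. Per kilobase of the annotated gene, the median H3K27me3 level in DMSO was 1.33 CPM for 125 members, 1.55 CPM for 1977 genes that lost share and 0.396 CPM for 16219 genes that passed the input minimum. The rule also asked that H3K27me3 CPM be no lower in MAK683, so the MAK683 levels are not independent of the choice either. After MAK683, 171 members (78.8%) were still at 0.8 or above over the MAK683 input, beside 69.4% of the genes that lost share and 10.9% of all genes. Above input were 216 of 217 members, 99.3% of the genes that lost share and 28.5% of all genes. The exception among the members was SLC43A3, a solute carrier with 79 and 55 H3K27me3 counts. It went from 0.97 to −0.25 as its input counts went from 35 to 96.

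The input of the members moved too. The median log2 change of input CPM between the treatments was 0.12 for the members, 0.045 for the genes that lost share and 0.0018 for all genes. More input CPM in MAK683 was found at 154 members (71.0%), beside 63.1% of the genes that lost share and 50.6% of all genes. The DMSO input is part of the rule, so this comparison is not independent of the choice. The change of H3K27me3 was also taken relative to the input of the same treatment. It was then at or above 0 at 91 members (41.9%), at 220 genes that lost share (7.63%) and at 60% of all genes. The members' median by this measure was −0.045, that of the genes that lost share −0.27 and that of all genes 0.098. By the log2 change of input CPM, the share of high genes that were members was 7.87% below −0.1, 3.88% from −0.1 to 0, 4.32% from 0 to 0.1, 6.84% from 0.1 to 0.2, 10.4% from 0.2 to 0.4 and 18.9% from 0.4 on, so it was lowest where the input moved least.

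The members that stood highest over input in DMSO included developmental transcription factors. NKX1-1, a homeobox factor (chr4:1396720-1400230), had 525 and 376 H3K27me3 counts (DMSO and MAK683), and 33 and 72 input counts. FEZF2, a zinc finger factor of forebrain neurons (chr3:62355356-62359999), had 516 and 383 H3K27me3 counts with 41 and 100 input counts. Both thus kept their H3K27me3 CPM while their input went from 1.96 to 3.69 CPM at NKX1-1 and from 2.44 to 5.12 CPM at FEZF2.

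Over input, NKX1-1 went from 3.77 to 2.92 and FEZF2 from 3.44 to 2.48 on the log2 scale, and both were still well above input. MARCKS, an actin-binding substrate of protein kinase C (496 and 358 H3K27me3 counts), went from 3.05 to 2.34. KCNA3, a voltage-gated potassium channel (355 and 248), went from 2.77 to 2.40. FOXA2, a forkhead factor of endoderm (chr20:22561636-22566093), differed in direction: its 416 and 327 H3K27me3 counts stood against 61 and 72 input counts, and its level over input went from 2.57 to 2.72. LINC00682, a noncoding gene (523 and 386), stayed at 2.68 and 2.64, and GDF10, a BMP-like ligand (764 and 551), went from 2.10 to 1.75. POU4F2, a POU factor of retinal neurons (272 and 199), was not among the 10 highest over input. It went from 1.98 to 2.49 as its input counts went from 60 to 51.

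H3K4me3 was not used to choose the members. In DMSO it was low in the members, with a median log2 value over input of −0.70, and −0.76 in the genes that lost share, while all genes had −0.25. These ratios share the DMSO input with the rule. H3K4me3 was above input at 20 members (9.22%), against 10.7% of the genes that lost share and 43.8% of all genes. It was at least 2 times the input at 7 members (3.23%), against 4.44% of the genes that lost share and 24.2% of all genes. The 7 were NKX1-1, MARCKS, KCNA3, SFRP5, FGF19 and, outside the rule for named genes and listed after their values were seen, RP11-730K11.1 and RP11-395L14.4. FGF19, an intestinal hormone that restrains bile acid synthesis, had 297 and 275 H3K4me3 counts beside 160 and 119 of H3K27me3, and SFRP5, a secreted WNT antagonist, had 265 and 238 beside 200 and 140. High H3K27me3 and high H3K4me3 counts thus stood over the same gene at a few members, although a count over a whole gene does not show that they lay on the same nucleosomes. In MAK683, 10 members (4.61%) were at 2 times the input or more, beside 6.76% of the genes that lost share and 22.6% of all genes. NKX1-1 was no longer among these 10, and LINC00682, GPR12, POU4F2 and EDN1 (endothelin, named after its values were seen) were added.

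H3K4me3 CPM was higher in MAK683 at 151 of 217 members (69.6%), at 79.6% of the genes that lost share and at 50.0% of all genes. The median log2 change was 0.22 for the members, 0.19 for the genes that lost share and 0.00046 for all genes. Taken over the input of the same treatment, the order of the groups turned, with 0.11 for the members and 0.15 for the genes that lost share. H3K4me3 CPM was at least 1.5-fold higher at 36 members (16.6%), against 3.85% of all genes, and at 342 genes that lost share (11.9%). It was at least 1.5-fold lower at 8 members (3.69%), against 0.828% of all genes, and at 30 genes that lost share (1.04%). The share of members past this fold was thus above that of all genes in both directions, and members also had fewer counts, with a median of 88 H3K4me3 counts in DMSO against 671. The interval of the H3K4me3 share lay above 48.0% at 65 members (30.0%), beside 22.7% of all genes and 47.4% of the genes that lost share, and below it at 9 (4.15%), beside 24.7% of all genes and 2.77% of the genes that lost share.

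Genes of like H3K4me3 counts, a split made after seeing the data, gave no single order of the groups. With a mean of 100 to 200 H3K4me3 counts over both treatments, 14 of 55 members (25.5%) and 75 of 491 genes that lost share (15.3%) were at least 1.5-fold higher. With 200 to 500 counts it was 2 of 39 members (5.13%) and 89 of 656 (13.6%), and with 50 to 100 counts 8 of 65 (12.3%) and 70 of 443 (15.8%). Below 50 counts it was 11 of 48 (22.9%) and 26 of 211 (12.3%), and from 500 on 1 of 10 (10.0%) and 82 of 1083 (7.57%). Members thus had the larger share in 3 of the 5 classes. The medians of the change were 0.28 and 0.19 for members and genes that lost share at 100 to 200 counts, and 0.20 in both groups at 200 to 500.

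Among members that averaged 50 or more H3K4me3 counts, the 5 largest increases were at a receptor gene and 4 developmental transcription factors. GPR12, an orphan G protein-coupled receptor (chr13:27329337-27334923), had 53 H3K4me3 counts under DMSO and 239 under MAK683, a share of 81.8% (76.9 to 86.1%) and a log2 change of CPM of 2.27. FEZF2 had 59 and 147 (71.4%, 64.7 to 77.4%, log2 change 1.42). SALL1, a zinc finger factor of kidney development (chr16:51169893-51186245), had 121 and 252 (67.6%, 62.5 to 72.3%, log2 change 1.17). Relative to input, H3K27me3 at these genes went from 2.19 to 1.91 at GPR12 and from 3.44 to 2.48 at FEZF2, and stayed at 0.94 at SALL1.

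POU4F2 had 55 and 112 H3K4me3 counts (log2 change 1.13) and FOXA2 had 62 and 122 (1.08). Relative to input, GPR12 went from −0.69 to 1.28, POU4F2 from −0.46 to 1.11, FOXA2 from −0.31 to 0.74 and SALL1 from −0.91 to 0.14, each from below to above its input. FEZF2 was above input in both, at 0.18 and 0.54. In all, 9 members had at least 2-fold more H3K4me3 CPM in MAK683, beside 0.696% of all genes and 2.88% of the genes that lost share.

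The 5 largest decreases among members with as many counts were smaller. RP11-687M24.4 had 73 H3K4me3 counts under DMSO and 40 under MAK683 (log2 change −0.74), MICC, a pseudogene of the MHC region, 67 and 40 (−0.62), KRT32, a hair keratin, 98 and 59 (−0.61), SSTR1, a somatostatin receptor, 88 and 53 (−0.61), and CTA-249B10.1 68 and 41 (−0.60). The upper bounds of the shares of these 5 were between 45.0 and 47.4%, below the library share of 48.0%. NKX1-1, which had high levels of both marks in DMSO, had 164 and 122 H3K4me3 counts, a share of 42.7% (36.9 to 48.6%) that included 48.0%.

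**Figure D4:**
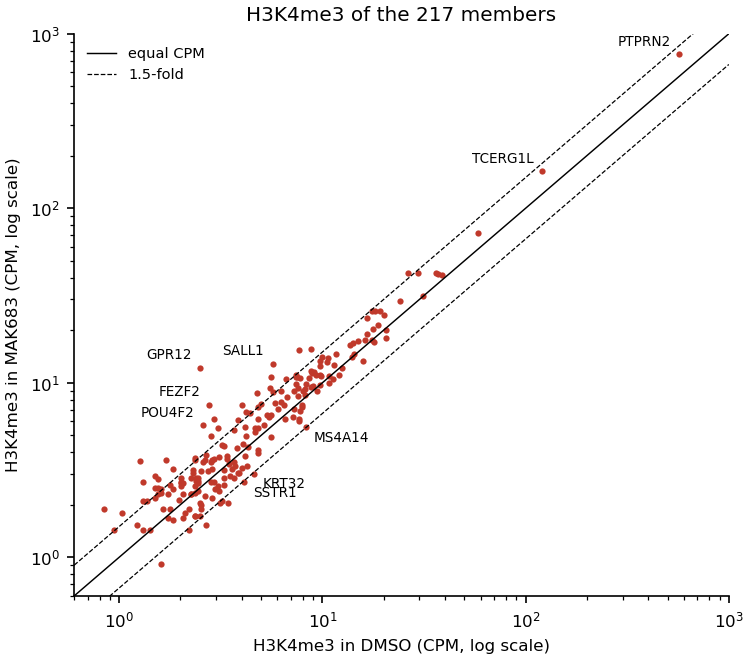
H3K4me3 CPM in DMSO (x axis, log scale) and MAK683 (y axis, log scale) of the 217 members, with the line of equal CPM and dashed lines at 1.5-fold. GPR12 lies farthest above the line, 36 members lie above the upper dashed line and 8 below the lower.

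The members were spread thinly over gene families. The families were taken from lists chosen with earlier results of these data known, and they are described by counts. Of 59 homeobox, PAX and POU genes outside the HOX clusters with high H3K27me3, 4 were members (NKX1-1, BARHL1 and POU4F2 among them), and the median change of the 59 was −0.32, below the −0.21 of all high genes. All 5 high HOX cluster genes had lost share, with a median of −0.74. FOXA2 was the only member of 15 high forkhead, SOX and T-box genes (median −0.35), and none of 10 high lineage bHLH genes was a member (median −0.39). The medians of these 4 lists all lay below that of the high genes.

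Cell surface and signaling lists had shares near or below the 7% of all high genes. There were 2 of 29 high neurotransmitter receptor genes (6.9%), OPRK1 (the kappa opioid receptor, 377 and 283 H3K27me3 counts) and NPY5R (a neuropeptide Y receptor, 191 and 138). KCNA3 was 1 of 29 potassium channel genes and TRPV6, an epithelial calcium channel (150 and 107), 1 of 22 sodium and calcium channel genes. No cadherin (of 7 high genes), neural adhesion (16), axon guidance (13), collagen (10) or laminin and integrin gene (5) was a member, but a share of 7% of such short lists is about 1 gene or less. Of 28 high WNT, TGF-beta, BMP and hedgehog genes 2 (7.14%) were members, GDF10 (a BMP-like ligand, 764 and 551) and SFRP5, and of 14 receptor tyrosine kinase and FGF genes only FGF19 (7.14%).

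In the lists that follow, the share of members is read beside the 7% of all high genes, and each list holds few genes. Of 26 high keratin genes 4 (15.4%) were members: KRT32 had 274 and 212 H3K27me3 counts, KRT34 211 and 158, KRT27 195 and 140, and KRT33A 147 and 110. Keratins are near copies of each other, so reads may have been divided between them. Of 29 high interferon, chemokine and cytokine genes 3 (10.3%, near the 7%) were members, the guanylate-binding protein gene GBP6 (526 and 375) and the T cell cytokines IL17A (141 and 104) and IL2 (90 and 68). ADAMTS16 and ADAMTS19 (835 and 588) were 2 of 13 matrix protease genes, TEX26 (1144 and 825) and DMRT2 (266 and 218) 2 of 14 germline genes, and ZNF663P (709 and 543) and ZNF840 2 of 11 numbered zinc finger genes. SLC6A3, SLC36A2 (883 and 616) and SLC43A3 were 3 of 48 solute carrier genes (6.25%). Each of these lists had 2 to 4 members, too few to tell their shares from 7%.

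Noncoding and unnamed genes made up much of the rest. The members held 11 of 93 high LINC genes (11.8%), led by LINC00840 (1139 and 800) and LINC00682, but 1 of 50 antisense genes, AMER2-AS1 (384 and 293), whose counts cannot be told apart from those of genes it overlaps. They held 90 of 963 clone-named genes (9.35%), led by RP5-1164C1.2 (1361 and 1018) and AC093802.1 (1295 and 929). None of the 19 high genes that the study named as secretory or target genes was a member, nor any of 3 imprinted, 5 olfactory receptor or 6 small RNA genes, lists too short to tell 0 from the 7% of all high genes. The other 87 members fell in none of the lists, out of 1573 such high genes (5.53%).

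A further 6 genes of these 87, picked after their values were seen, serve as examples and stand for no group. ALB, serum albumin, had 524 and 394 H3K27me3 counts, and CYP3A4, a drug-metabolizing enzyme of the liver, had 793 and 588. SFTPD, a surfactant protein of the lung, had 739 and 518, and ABCG8, a sterol transporter, had 964 and 712. TTR, the carrier of thyroid hormone, had 217 and 157, and GCG, the precursor of glucagon, 217 and 152. The log2 changes of H3K27me3 at these 6 genes were between 0.012 and 0.11.

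Members were short. By GENCODE release 44 on GRCh37, the build of the deposited counts, 125 of the 217 members (57.6%) could be placed, 117 under the name in the table and 8 under a later name, and 68.6% of the genes that lost share. The median length was 14.5 kb for the members, 46.0 kb for the genes that lost share and 36.6 kb for all genes. Of the 125, 52 (41.6%) were shorter than 10 kb, against 17.6% of the genes that lost share and 15.1% of all placed genes. At least 100 kb long were 12 (9.6%), against 32.0% of the genes that lost share and 22.3% of all placed genes. Length and count went together. Between 600 and 1200 H3K27me3 counts the medians were 20.3 kb for 38 members and 15.6 kb for 340 genes that lost share, and below 300 counts 5.26 and 5.54 kb, so among genes of like counts members were not uniformly the shorter. CpG-rich promoters had a lower share among members in each class of H3K27me3 counts below 2400, for example 10 of 29 members and 107 of 255 genes that lost share (34.5 and 42.0%) at 600 to 1200, and 4 of 15 and 117 of 268 (26.7 and 43.7%) at 1200 to 2400. From 2400 on it was 3 of 5 members and 395 of 695 genes that lost share (56.8%). In classes of like H3K4me3 counts the order was the opposite in 4 of 5, as with 9 of 24 members and 61 of 194 genes that lost share (37.5 and 31.4%) at 100 to 200 counts. These splits were made after seeing the data.

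Of the placed members 98 (78.4%) were protein-coding, 14 (11.2%) lncRNA genes and 13 (10.4%) pseudogenes, beside 86.7, 8.4 and 4.35% of the genes that lost share. Over all placed genes that passed the input minimum the shares were 91.4, 5.43 and 2.98%. The median GC content of the whole gene was 42.8% in both groups. Members with a CpG-rich promoter (27) had a median H3K27me3 over input of 1.29 in DMSO and 1.38 in MAK683, and those with a CpG-poor promoter (64) had 1.04 and 1.02. In DMSO, 7 of the 27 and 3 of the 64 had more H3K4me3 than input.

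The placed members lay on every chromosome with high genes except 15 and 22. Chromosome 10 had the most, 11 of 132 high genes, and chromosome 20 had 10 of 73 (13.7%), whereas chromosome 1 had 4 of 229 (1.75%). Chromosomes 15 and 22 had 48 and 10 high genes. Next to another member, in the order of genes that passed the input minimum, lay 12 of 125 members (9.6%), beside 4.75% of the genes that lost share and 1.53% of all genes. Next to a high gene of either kind lay 77 (61.6%), beside 65.4% of the genes that lost share and 21.6% of all genes. Most members thus had a gene of high H3K27me3 beside them. Within 1 Mb of another member lay 30 members (24.0%), and within 1 Mb of a member lay 18.1% of the genes that lost share. These neighbors had a median change of −0.215, and genes that lost share farther away had −0.222.

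The 12 neighboring members formed 6 pairs and no longer run. CTD-2297D10.2 and ADAMTS16 lie head to head at chr5:5132197-5320417, with 193 and 158 H3K27me3 counts for the former. FANCD2P2 (907 and 641) and MARK2P14 (197 and 167) are pseudogenes at chr3:11901148-11953787. MS4A14 (436 and 309) and MS4A5 (523 and 365), from a family of membrane proteins, lie at chr11:60146003-60222687. In the last pair H3K4me3 went in opposite directions, from 176 to 109 counts at MS4A14 and from 141 to 207 at MS4A5. Other pairs included ZNF663P and ZNF840, and KRT43P and KRT32.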

How the data were processed

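H3K27me3, H3K4me3 and input ChIP-seq of G401 cells in DMSO or 3 µM MAK683 were used, 1 library each. Per the submitters' processing notes and the methods, the authors trimmed reads (Trim Galore 0.4.4), aligned them to hg19 with Bowtie2, removed repeats with Picard 2.23.6 and made profiles with deepTools 3.4.3. They deposited featureCounts read counts per gene as whole numbers. The gene annotation used for counting is not given in the sources used here, and counts over whole genes dilute a narrow promoter signal in long genes. The counts were used as deposited, without the spike-in scaling.

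Counts were divided by column totals, and log2 ratios used a pseudocount of 0.05 CPM (Python 3.11.15, numpy 2.4.6, pandas 2.3.3, scipy 1.17.1, matplotlib 3.10.9). Positions came from GENCODE release 44 (GRCh37, the build of hg19) and promoters from RefSeq, both by symbol. The members, the gene lists and the comparisons were chosen with earlier results of these data known. Members were named by rule: the 10 with the most DMSO H3K27me3 counts, the 10 highest over input with at least 200 such counts, up to 10 largest increases among those with an interval above the library share, the 5 largest H3K4me3 increases and decreases with a mean of at least 50 counts, up to 6 per gene list, the 3 longest runs, and the 3 genes on each side of each threshold. Genes with near copies or overlaps are uncertain, since reads may be divided or dropped there. 1 named member is not reported here. The steps were tested on simulated data. Alternatives were other pseudocounts, input minimums, levels, scalings, references and subsets of genes.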

Additional observations from a re-analysis of the deposited data

How the results depend on the processing

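The number of members was 217 as reported, 341 and 52 with input minimums of 50 and 500, 1364 with none, and 329 and 128 with levels over input of 0.6 and 1.0. Median-of-ratios scaling, which lowered every H3K27me3 log2 change by 0.101 and every H3K4me3 change by 0.016, left 78, all among the 217. The interval above the library share left 7, placed autosomal genes 120, placed genes with at least 50% unshared span 107, and all placed genes 125, an alternative added after the data had been seen. The number was 206 and 190 with pseudocounts of 0.5 and 1 CPM, 195 with both inputs as the reference (181 shared) and 311 with the change taken over input, of which only 91 were among the 217. With a pseudocount of 1 CPM the median H3K4me3 over input was −0.62 for members and −0.70 for genes that lost share, and the latter's median H3K4me3 change 0.180 (0.176 with median-of-ratios scaling). Over input, the median H3K4me3 changes were 0.11 and 0.15. With an input minimum of 500 the genes that lost share had a median H3K4me3 over input of −0.80, an input change of 0.035 and a length of 92.0 kb, and members a length of 45.0 kb. The 7 members with an interval above the library share had a median H3K4me3 over input of −0.37, an H3K4me3 change of 0.14, an input change of 0.060 and a length of 30.4 kb. Members within 1 Mb of another were 24.0%, against 9.6% next to one. Of the alternative values, 25 moved by more than the interval or 1.5-fold range used here, 12 did not, and 0 changed sign. Numbers of members, lengths and shares of neighbors cannot change sign. The members' median H3K27me3 change was not among these values, and it was 0.071 by CPM and −0.045 over input. Apart from the smaller sets of genes, the cause of the moves was not tested.

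No paired analysis was possible because each treatment had 1 library per antibody, and for the same reason no replicate was left out. Without replicates or the spike-in, neither the spread between cultures nor the absolute loss of H3K27me3 can be given, and with a median of 274 counts most members' changes were within counting error.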
